A study of Mus musculus with 6 samples.

Results

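The 36 genes described here belong to the unfolded protein response and to the linked response to amino acid shortage. They were taken as a fixed list of symbols, each represented by the probe set of highest mean among those that name that gene alone, and all 36 were found among 18194 genes with such a probe set. They form 2 arms: 23 genes of chaperones, stress sensors and endoplasmic-reticulum-associated degradation (ERAD), and 13 genes of ATF4 and its targets. 35 of the 36 passed the level filter, which asked for at least 3 of 6 arrays at or above the array's median, and 11623 genes in all passed it; Slc7a11 did not.

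RNA came from tumours formed under the skin of mice by KPC1199, a mouse cell line of pancreatic ductal adenocarcinoma. The lactation group (3 tumours) grew in mice injected once pregnant or nursing, and the control group (3 tumours) in age-matched mice outside that state; every tumour was taken 20 days after injection. The labels name no strain, no genotype of the hosts and no further agent in either group, and a single tumour line was used throughout. Each tumour was read on its own 3' expression array, and values are MAS5 signals on the scale the authors deposited, with array medians from 99.3 to 111. Markers of duct epithelium, the labelled tumour tissue, were at or above the array median on all arrays for 11 of 11 measured genes. The same held for 11 of 11 fibroblast and 11 of 11 macrophage markers, so the samples are mixed tissue, and in them fewer cells of a type cannot be told apart from less RNA per cell. Of 9 milk and mammary markers 1 passed the level filter, and their summed signal was 297 to 376 on 5 arrays and 1414 in lactation replicate 2.

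In the unfolded protein response, the membrane proteins IRE1 (gene Ern1), ATF6 and PERK (gene Eif2ak3) sense unfolded protein in the lumen of the endoplasmic reticulum. IRE1 splices the mRNA of Xbp1, ATF6 is cut to release a transcription factor, and both raise chaperone and ERAD genes. PERK phosphorylates the initiation factor eIF2 alpha, as GCN2 does when amino acids run short. Bulk translation then slows while the ATF4 protein is made, and ATF4 raises genes of amino acid synthesis, transport and feedback. Both arms have been studied in pancreatic cancer, a tissue of secretory origin.

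The arms differ in the short promoter elements through which they are known to be driven, and these are shown first because the values are given by arm. RefSeq promoter windows (GRCm38.p6, 250 bases before to 50 bases after a start site) were at hand for 32 of the 36 members, all but Hyou1, Atf6, Manf and Derl1. The ER stress response element ERSE, searched on both strands as CCAAT, then 9 bases of any kind, then CCACG, lay in the windows of 8 of 19 chaperone, sensor and ERAD members and of 0 of 13 ATF4-arm members. Over 27025 genes with a window, 0.137% held it. Its capitals below mark the defined letters, each on the strand that reads CCAAT first.
Hspa5 (chr2:34772017-34772051, plus strand): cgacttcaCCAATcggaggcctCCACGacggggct
Calr (chr8:84847067-84847101, plus strand): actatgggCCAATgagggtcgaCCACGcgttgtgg
Dnajc3 (chr14:118937819-118937853, plus strand): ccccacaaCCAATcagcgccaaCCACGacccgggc
Creld2 (chr15:88819512-88819546, minus strand): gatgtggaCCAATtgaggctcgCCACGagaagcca
Syvn1 (chr19:6046524-6046558, plus strand): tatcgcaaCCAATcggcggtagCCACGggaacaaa

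Hsp90b1, Canx and Pdia6 also held an ERSE. The variant ERSE-II, searched as ATTGG, 1 base and CCACG, was found for Herpud1 and Dnajb11 and in 0.0444% of genes with a window. The element that ATF4 binds together with C/EBP factors, called CARE and searched as TGATGNAA, lay in 4 of 13 ATF4-arm windows (Asns, Chac1, Slc7a11 and Trib3) and in 1 of 19 of the other arm (Herpud1). It is a loose motif, held by 4.51% of all genes with a window. The element UPRE, searched as TGACGTGG, lay in none of the 32 members' windows and in 0.714% of all. ERSE and ERSE-II both contain CCACG, which alone was held by 35.5% of genes. A match describes the window and shows no binding.
Asns CARE (chr6:7693217-7693240, minus strand): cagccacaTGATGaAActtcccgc
Chac1 CARE (chr2:119351041-119351064, minus strand): ggcaggagTGATGcAAcggcaggg
Trib3 CARE (chr2:152344031-152344054, plus strand): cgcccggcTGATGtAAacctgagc
Dnajb11 ERSE-II (chr16:22857844-22857870, plus strand): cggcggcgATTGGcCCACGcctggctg

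Herpud1 was the one member whose window held elements of both arms, and the whole window is printed because this gene had the lowest unadjusted p of all members. Capitals mark the CARE, which here reads on the opposite strand, 112 bases before the start site, and the ERSE-II 52 bases before it.
Herpud1 (chr8:94386179-94386478, plus strand): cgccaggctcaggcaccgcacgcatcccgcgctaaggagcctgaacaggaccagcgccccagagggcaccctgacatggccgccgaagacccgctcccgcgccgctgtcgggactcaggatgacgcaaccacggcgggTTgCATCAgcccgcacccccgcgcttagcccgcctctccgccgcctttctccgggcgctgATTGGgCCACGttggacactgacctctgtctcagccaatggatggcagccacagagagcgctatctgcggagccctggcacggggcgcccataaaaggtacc

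The comparison of lactation and control tumours asked whether either arm changed with the state of the host. A log2 difference is given as lactation minus control on log2(signal + 16), which understates the change of dim genes. No member passed limma's test at an adjusted p under 0.05 over all genes, and neither did any other gene (0%). Of the 35 members tested, 11 had a higher and 24 a lower mean in lactation, that is 68.6% lower where 51.7% of all genes tested were lower. At an unadjusted p under 0.05 in limma, 2 members were lower, Herpud1 and Mthfd2, and 0 were higher. That is 5.71% of the members lower, where 0.766% of all genes were lower and 1.51% higher by the same rule; with arrays centred on their medians the numbers of such genes were 125 lower and 109 higher in place of 89 and 175. Groups did not overlap for 2 members, Herpud1 and Asns, both lower in lactation, beside 3.19% of all genes lower and 3.71% higher without overlap. With 2 genes these shares rest on too few members to be read as a property of the list. Of 24 members with more than 1 probe set past the level filter, 12 had probe sets of differing sign. Groups also did not overlap for another probe set of Atf6, Ern1 and Syvn1, described with those genes.

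The arms are compared next by their group differences and by their variation among the 6 tumours. The median log2 difference was -0.038 for the 23 chaperone, sensor and ERAD members and -0.14 for the 12 tested ATF4-arm members, beside -0.0052 for all genes tested. With arrays centred on their medians these medians were -0.083, -0.19 and -0.051, and 18 in place of 14 of the 23 members of the first arm were lower. The range over the 6 arrays had a median of 0.28 on the log2 scale in the first arm and 0.79 in the ATF4 arm, beside 0.44 over all genes. In the first arm 19 of 23 genes had a smaller range than that median, while in the ATF4 arm 9 of 12 had a larger one. These ranges were not matched for signal level. Mean signals in lactation ran from 872 to 13048 in the first arm and from 223 to 7309 in the tested ATF4-arm members. Leaving out control replicate 2 moved the ATF4-arm median to -0.0098 and the median of the other arm to 0.0014. Without lactation replicate 1, 2 or 3 the ATF4-arm median was -0.17, -0.25 or -0.053, and without control replicate 1 or 3 it was -0.22 or -0.28.

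**Figure D1:**
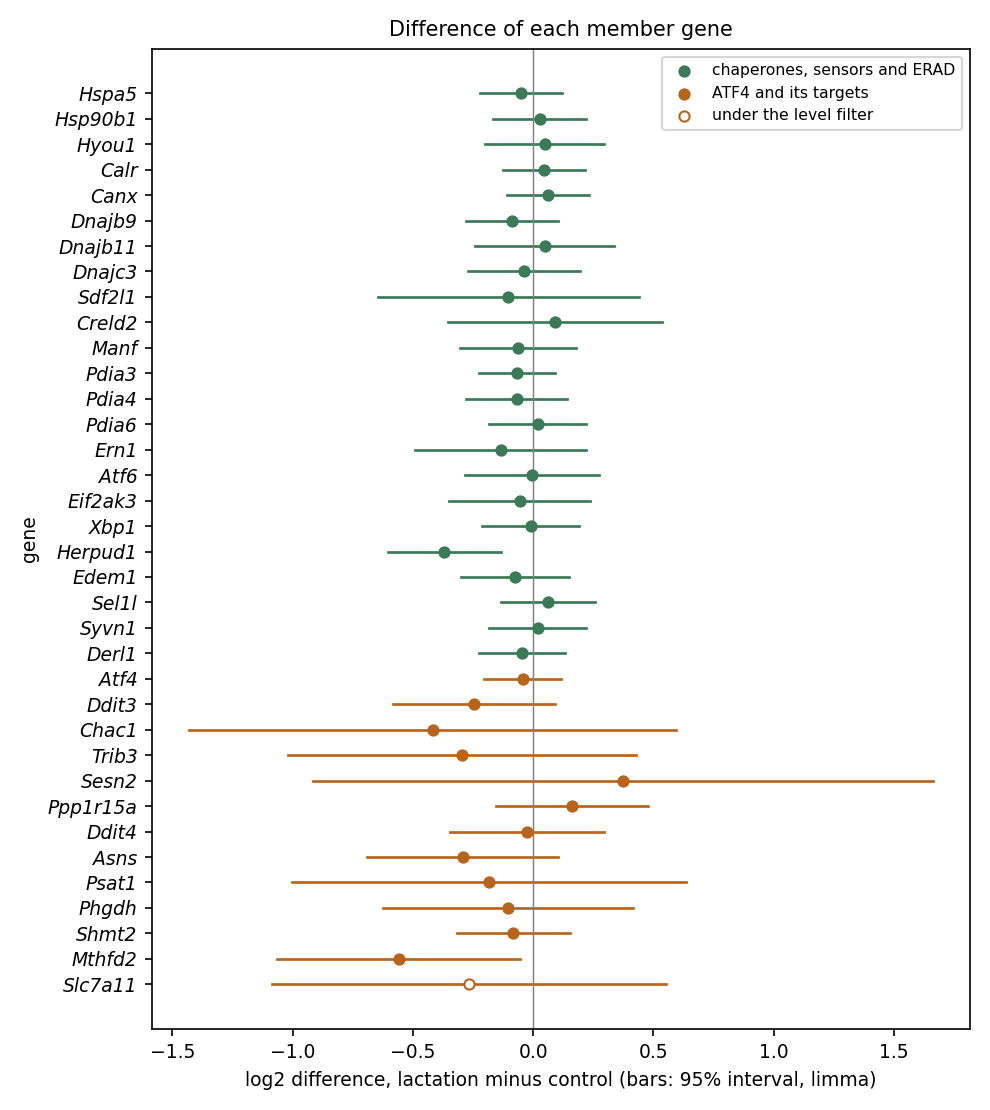
Log2 difference (lactation minus control, horizontal axis) of each member gene (vertical axis) with its 95% interval from limma; green, chaperones, sensors and ERAD; orange, ATF4 and its targets; open circle, Slc7a11, which lay under the level filter. The intervals of Herpud1 and Mthfd2 lie below 0 and those of the other 34 genes include it.

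Most chaperones of the endoplasmic reticulum lay at nearly the same level in all 6 tumours, while Sdf2l1 and Creld2, described below, varied more. Hspa5 encodes BiP, the Hsp70 chaperone that holds the sensors inactive. The lactation tumours had signals of 13446, 12247 and 11892, and the control tumours 13667, 13009 and 12282, so the groups overlapped almost fully. The log2 difference was -0.052 (standard error 0.072), with a 95% interval from -0.22 to 0.12. Hsp90b1, the Hsp90 of this compartment also called GRP94, differed by 0.028 (95% interval from -0.17 to 0.22), and Hyou1, a large Hsp70 relative that serves as exchange factor for BiP, by 0.048 (from -0.20 to 0.30). Calr and Canx encode the lectin chaperones calreticulin and calnexin, which hold newly made glycoproteins. Calr differed by 0.045 (from -0.12 to 0.21) and Canx by 0.063 (from -0.11 to 0.23). A change of 1.41-fold in either direction (0.5 on the log2 scale) lay outside the intervals of 20 of the 23 genes in this arm, the exceptions being Sdf2l1, Creld2 and Herpud1.

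Of the J-domain partners of BiP, Dnajb9 (ERdj4) differed by -0.090 on the log2 scale (standard error 0.081), Dnajb11 (ERdj3) by 0.048 (0.12) and Dnajc3 (p58IPK, which also inhibits PERK) by -0.038 (0.099). The other probe sets of Dnajc3 that passed the filter had differences between -0.12 and 0.036. None of the 3 genes separated the groups, and the highest array was a lactation tumour for Dnajb11 and Dnajc3 and a control tumour for Dnajb9.

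Of 3 small secreted or lumenal proteins, Sdf2l1 and Creld2 had the widest ranges of the chaperone genes, 0.79 and 0.61 on the log2 scale, while that of Manf (0.31) was close to that of Hyou1 (0.32). Sdf2l1, a partner of the J-domain chaperones, had signals of 1902, 1671 and 1120 in lactation and 1764, 1949 and 1286 in controls. Creld2, a stress-induced protein with disulphide isomerase features, measured 2375, 1977 and 1584 in lactation and 1737, 2272 and 1553 in controls. Both genes were low in the third replicate of each group and high in lactation replicate 1 and control replicate 2, so the variation ran across the groups and not between them. Manf, a lumenal protein that leaves the cell under stress, measured 5809, 4982 and 4917 against 5042, 6100 and 5289, with the same highest arrays. Log2 differences were -0.10 for Sdf2l1, 0.092 for Creld2 and -0.064 for Manf, with standard errors of 0.23, 0.19 and 0.10.

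Disulphide isomerases, which form and rearrange disulphide bonds, had ranges of 0.21 to 0.28. Pdia3 (ERp57, the partner of calreticulin and calnexin) differed by -0.067 (standard error 0.067), Pdia4 (ERp72) by -0.069 (0.089), and Pdia6 (P5) by 0.018 (0.086). The last value was -0.11 as the mean of both probe sets and -0.027 with arrays centred on their medians. Pdia3 and Pdia4 were highest in control replicate 3 and lowest in lactation replicate 2.

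On the probe sets used, the 4 sensor and transducer genes had lower means in lactation by amounts below their errors, and for Atf6, Eif2ak3 and Xbp1 the direction turned when single arrays were left out. Ern1 measured 742, 1060 and 815 in lactation and 864, 948 and 1040 in controls, and the log2 difference was -0.13 (standard error 0.15). The extremes of Ern1 were both lactation tumours, replicate 1 as the lowest and replicate 2 as the highest. Atf6 differed by -0.0045 (standard error 0.12), Eif2ak3 by -0.056 (0.12) and Xbp1 by -0.011 (0.086). Another probe set of Atf6 was lower in every lactation tumour (430, 481 and 438) than in any control (530, 503 and 546), a difference of -0.22 (0.10). Another of Ern1, near the array medians, was higher in every lactation tumour (128, 119 and 124) than in any control (114, 116 and 97.7), a difference of 0.16 (0.17). The probe sets of both genes therefore disagreed on overlap, and those of Ern1 also on direction. Splicing of Xbp1, cleavage of ATF6 and phosphorylation in the PERK branch happen after transcription, and none of them is read by these signals.

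**Figure D2:**
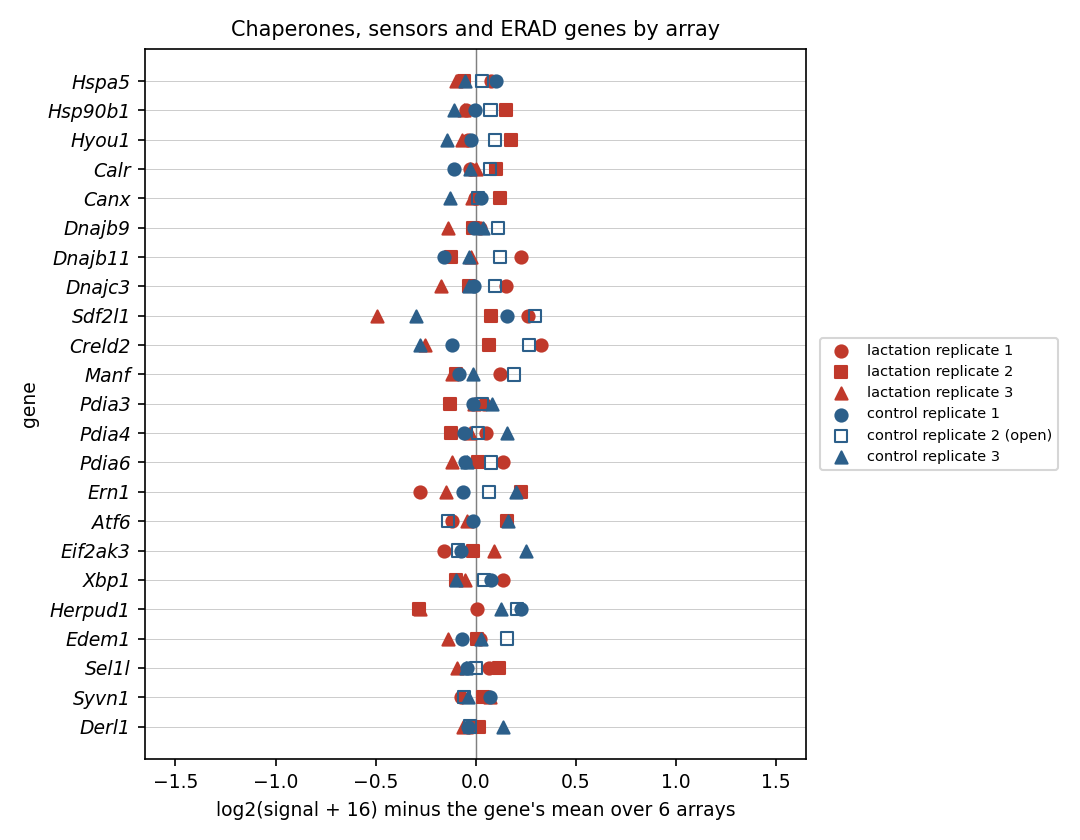
Log2(signal + 16) of each chaperone, sensor and ERAD gene (vertical axis) on each of the 6 arrays, as the deviation from that gene's mean (horizontal axis, log2 units); red, lactation; blue, control; the open square is control replicate 2. Points lie close to 0 for most genes, Sdf2l1 and Creld2 spread wider, and Herpud1 has its 3 lactation points below its 3 control points.

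Among ERAD genes Herpud1 stood apart from its neighbours. It encodes a membrane protein that organises the complex which moves misfolded proteins out to the proteasome. Lactation tumours had signals of 2645, 2161 and 2172 and control tumours 3083, 3039 and 2874, with every lactation tumour below every control tumour. Means were 2326 ± 277 (SD, n = 3) and 2999 ± 110 (SD, n = 3), and control tumours were 1.29-fold higher on the log2(signal + 16) scale. The log2 difference was -0.37 (standard error 0.10), with a 95% interval from -0.61 to -0.13; limma's unadjusted p was 0.00744 and its adjusted p over all genes was 1. An exact permutation test of 3 against 3 arrays cannot give less than 0.1. A second Herpud1 probe set gave -0.32 with a standard error of 0.13, and there lactation replicate 1 (2221) lay above control replicate 3 (2145). The difference stayed between -0.47 and -0.32 when each array was left out in turn.

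The remaining ERAD genes overlapped between groups on the probe sets used. Edem1, a lectin that extracts misfolded glycoproteins from the folding cycle, differed by -0.076 (standard error 0.096). Sel1l and Syvn1 encode the adaptor and the ubiquitin ligase (HRD1) that work in the same complex as the Herpud1 protein. Sel1l measured 2574, 2662 and 2302 in lactation and 2383, 2456 and 2370 in controls, a difference of 0.061 (0.082). Syvn1 measured 1408, 1519 and 1556 against 1560, 1424 and 1440, a difference of 0.018 (0.085). A second Syvn1 probe set did not overlap, at 743, 767 and 809 in lactation and 866, 902 and 848 in controls, a difference of -0.17 (0.087). Derl1, a channel component of the same pathway, differed by -0.047 (0.075).

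In the ATF4 arm the highest signals fell mostly in control replicate 2. Of the 12 tested members, 9 had their highest signal there on the probe sets used, where 14.5% of all genes tested did. For Atf4 the margin was small, and another Sesn2 probe set past the filter was lowest there. In 6 of the 12 (Asns, Psat1, Phgdh, Mthfd2, Chac1 and Trib3) the signal of that tumour was at least 1.2 times that of the next highest array, a limit chosen after the values were seen. The same was true of 2.07% of all genes tested, and of 0 of the 23 chaperone, sensor and ERAD members. For each of the other 5 arrays the count of ATF4-arm members past that limit was 0, while 1.32% to 6.13% of all genes passed it there. The lowest signals fell most often in lactation replicate 3, for 6 of the 12 and for 4 of the 5 tested amino acid genes, where 18.3% of all genes were lowest. That tumour was also lowest for 9 of the 23 chaperone, sensor and ERAD members. The median deviation of the ATF4-arm members from their means was 0.51 in control replicate 2 and -0.19 in lactation replicate 3 on the log2 scale.

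Atf4 itself had the smallest range of its arm on the probe set used. Lactation tumours measured 5279, 5709 and 5275 and controls 5358, 5752 and 5649, a range of 0.12 on the log2 scale, and 1.69% of genes tested had a smaller one. The log2 difference was -0.044 (standard error 0.068). A second Atf4 probe set varied more, at 2528, 3135 and 3148 in lactation and 2865, 3305 and 2524 in controls, a range of 0.39 and a difference of 0.020 (0.13). As background, ATF4 activity is set mainly by translation of its mRNA, which arrays do not read.

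Enzymes of serine, glycine and one-carbon metabolism and asparagine synthesis all peaked in control replicate 2 on the probe sets used, but differed in their order on the other arrays. Asns makes asparagine and is the classic gene of the amino acid response. It measured 1937, 1929 and 1823 in lactation and 2009, 3090 and 2029 in controls. All 3 lactation values lay below the controls, but 2 of the controls exceeded the highest lactation value by little, and control replicate 2 was 1.53 times the mean of the other controls. The log2 difference was -0.29 (standard error 0.17), and -0.090 (0.090) without control replicate 2. The second Asns probe set peaked in the same tumour at 2649 and its groups overlapped.

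Psat1 and Phgdh carry out successive steps of serine synthesis. Psat1 measured 1765, 2247 and 1382 in lactation and 1652, 3492 and 1393 in controls, so that control replicate 2 was 2.29 times the mean of the other controls, which themselves lay within the lactation values or next to the lowest. Its log2 difference was -0.18 (standard error 0.35), and 0.21 (0.21) without that tumour. Phgdh measured 5386, 5539 and 3975 against 5185, 7094 and 4010, with a difference of -0.10 (0.22) that became 0.11 (0.18) without control replicate 2. All 4 Phgdh probe sets peaked in control replicate 2; all are of a type that can also bind related transcripts, so signal from close copies is not separated.

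Mthfd2, the mitochondrial folate enzyme, had the largest absolute difference of the amino acid genes. It measured 623, 786 and 575 in lactation and 761, 1313 and 924 in controls, and lactation replicate 2 lay above control replicate 1. The log2 difference was -0.56 (standard error 0.21), with a 95% interval from -1.06 to -0.055; limma's unadjusted p was 0.0341 and its adjusted p was 1. Without control replicate 2 the difference was -0.35 (0.17) and the unadjusted p in limma was 0.0927, and without lactation replicate 1 or 3 or control replicate 3 that p was 0.0888, 0.104 or 0.0535. A second Mthfd2 probe set gave -0.46 (0.20). Shmt2, which passes one-carbon units from serine to folate in the mitochondrion, measured 1320, 1340 and 1299 against 1350, 1575 and 1285, a difference of -0.082 (0.099). That probe set is of the type described for Phgdh. Other Shmt2 probe sets past the filter gave -0.30 (0.18), with control replicate 2 highest at 834, and 0.11 (0.20), with lactation replicate 2 highest.

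Slc7a11, the cystine-glutamate exchanger, lay under the level filter, with signals of 42.1, 116 and 57.9 in lactation and 77.6, 111 and 66.6 in controls. Most of these values lay under the array medians, and the groups overlapped. Without the filter its log2 difference was -0.27 (standard error 0.35).

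**Figure D3:**
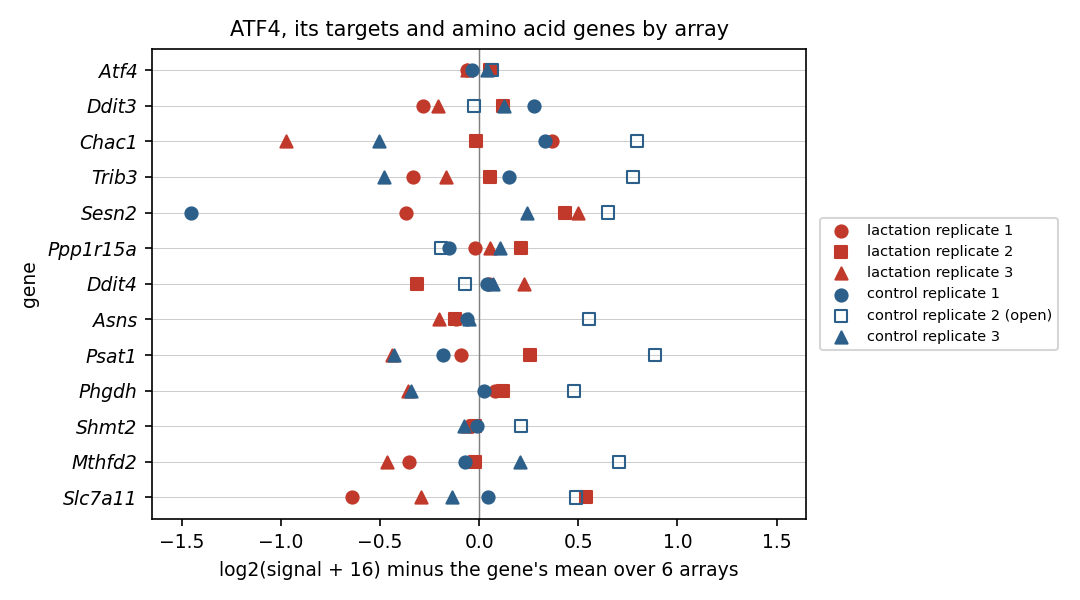
Log2(signal + 16) of each ATF4-arm gene (vertical axis) on each of the 6 arrays, as the deviation from that gene's mean (horizontal axis, log2 units); red, lactation; blue, control; the open square is control replicate 2. The open square is the rightmost point for 9 of the 12 tested genes, by a wide margin for Asns, Psat1, Phgdh, Mthfd2, Chac1 and Trib3, while the Atf4 points lie close together.

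Stress effectors downstream of ATF4 were divided. Chac1, which degrades glutathione, measured 394, 298 and 146 in lactation and 385, 537 and 208 in controls. Trib3, a pseudokinase that feeds back on ATF4, measured 223, 296 and 251 against 318, 498 and 199. Each had its highest signal in control replicate 2, and control replicate 3 was among the lowest arrays for both. The log2 difference of Chac1 was -0.42 (standard error 0.43) and that of Trib3 -0.30 (0.31); without control replicate 2 they were -0.12 and 0.017, and without lactation replicate 3 that of Chac1 was -0.035.

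Ddit3 (CHOP), the transcription factor of prolonged stress, did not peak in control replicate 2. It measured 552, 737 and 584 in lactation and 822, 664 and 739 in controls, with control replicate 2 the lowest of the controls, and its log2 difference was -0.25 (standard error 0.14). A dimmer second probe set gave 0.20 (0.26), with control replicate 3 the lowest control, and the mean of both gave -0.022. With 1 array left out the difference ran from -0.37 to -0.17. Ppp1r15a (GADD34), the phosphatase subunit that restores eIF2 alpha, measured 360, 425 and 380 against 327, 318 and 394, a difference of 0.16 (0.13), and was lowest in control replicate 2. Sesn2, an inhibitor of mTORC1 signalling, ranged widely, at 141, 258 and 271 in lactation and 58.2, 303 and 225 in controls. Its difference of 0.37 had a standard error of 0.55 and was -0.26 without control replicate 1.

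Ddit4 (REDD1), also an inhibitor of mTORC1, measured 7539, 5862 and 8526 in lactation and 7480, 6932 and 7660 in controls. The difference was -0.025 (standard error 0.14), and both extremes were lactation tumours. Ddit4 is also induced by hypoxia, and the summed signal of 12 hypoxia genes was 16665, 19685 and 23136 in lactation and 20272, 14390 and 16578 in controls. Ddit4 and that sum were both highest in lactation replicate 3, but their lowest arrays differed; a role of hypoxia in these values was not tested.

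**Figure D4:**
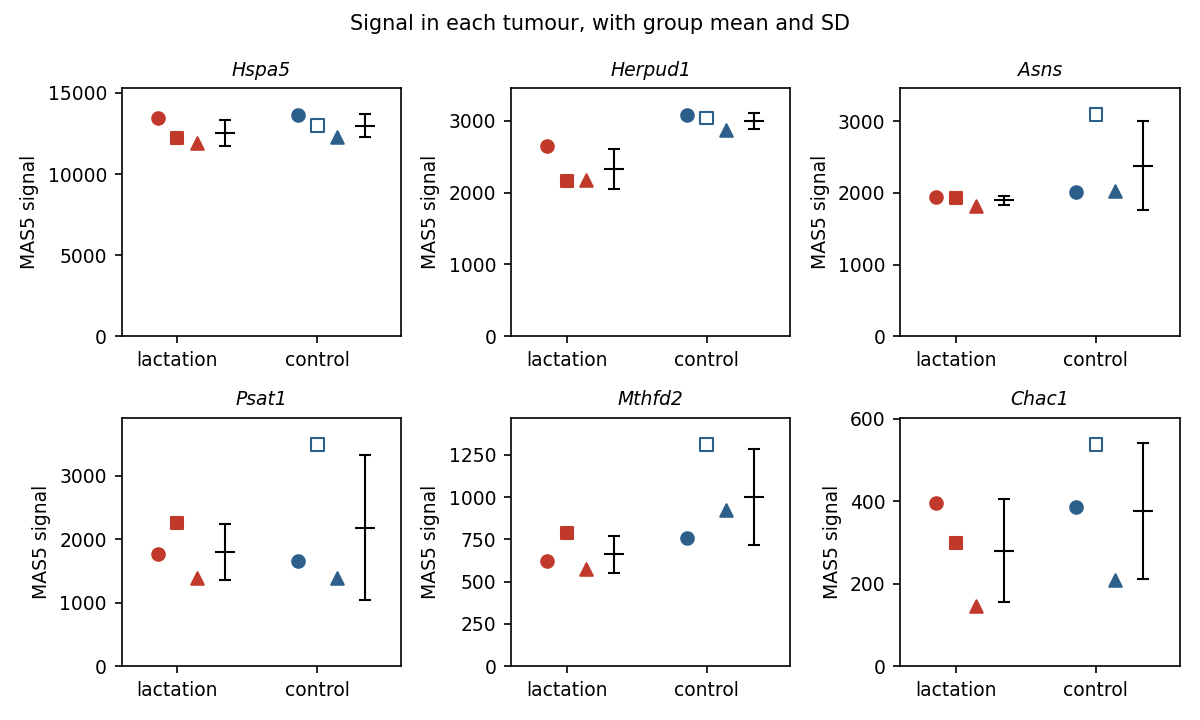
MAS5 signal (vertical axis, from 0) of 6 member genes in the 3 lactation (red) and 3 control (blue) tumours, with the group mean and SD in black beside the points; the open square is control replicate 2. Hspa5 is level, Herpud1 is lower in each lactation tumour, and Asns, Psat1, Mthfd2 and Chac1 peak in control replicate 2.

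Other genes of the pathways, from lists that leave out the members, were read beside them. Of 57 tested genes of ER translocation, glycosylation, oxidative folding and ERAD, 16 were higher and 41 lower in lactation. That is 71.9% lower, where 51.7% of all genes tested were lower. The median log2 difference was -0.065, beside -0.0052 for all genes tested. Of the 57, 0 had an unadjusted p under 0.05 in limma. Groups did not overlap for 3 of them (5.26%), all lower in lactation, beside 3.19% of all genes. They were Srprb, the beta subunit of the signal recognition particle receptor (534 ± 42.6 against 623 ± 42.6, SD, n = 3 each), Ppib, cyclophilin B (7846 ± 129 against 9021 ± 1255), and Hspa13, an Hsp70 relative of microsomes (1743 ± 149 against 1970 ± 88.7). In 28 of the 57 the highest array was control replicate 3, where 22.1% of all genes and 10 of 11 fibroblast markers also peaked; the summed fibroblast signal was 147217 there and 106545 to 122161 elsewhere. The part of fibroblast content in these values was not tested.

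The wider list of the ATF4 arm covered eIF2 kinases, amino acid transport and synthesis, and tRNA charging. It also held transcription factors such as Atf3 and Cebpb and other genes such as Vegfa and Vldlr. Of its 46 tested genes, 13 were higher and 33 lower (71.7% lower, beside 51.7% of all genes tested), with a median of -0.052. Groups did not overlap for 2 (4.35%, beside 3.19% of all genes), Tars and Mars1, the threonyl- and methionyl-tRNA synthetases, both lower in lactation. Tars measured 1904 ± 17.8 in lactation and 2217 ± 191 in controls, with an unadjusted p of 0.0426 in limma and an adjusted p of 1. Mars1 measured 1248 ± 107 against 1436 ± 66.7. In 20 of the 46 (43.5%) the highest array was control replicate 2, where 14.5% of all genes tested peaked. In 6 (13.0%) the signal there was at least 1.2 times that of the next array, beside 2.07% of all genes tested. That limit, as said above, was chosen after the values were seen. The 4 with the widest margin over the next array, chosen after their values were seen, were Psph, the last enzyme of serine synthesis, Atf5, a relative and target of ATF4, Slc7a5, a transporter of large neutral amino acids, and Vldlr, a lipoprotein receptor. Psph measured 599, 595 and 497 in lactation and 572, 1103 and 598 in controls, and Atf5 1358, 1614 and 1173 against 1504, 2462 and 1350. Slc7a5 measured 790, 859 and 525 against 903, 1194 and 801, and Vldlr 830, 1100 and 845 against 836, 1452 and 587.

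Several marker lists were also at an extreme in control replicate 2. The summed signal of 11 ductal markers was lowest there, at 73526, beside 79524 to 113324 in the other tumours, and that of the hypoxia genes was lowest too. Summed macrophage markers were highest, at 68217 beside 43117 to 66301, as were mast cell markers (9246 beside 2405 to 7477) and T cell markers (1926 beside 962 to 1431). By gene, 5 of 11 macrophage, 6 of 9 mast cell and 3 of 4 tested T cell markers peaked there. The other macrophage markers peaked in control replicate 3 (4 genes) or lactation replicate 2 (2 genes). Of the 12 hypoxia genes, 5 were lowest in control replicate 2. The adipocyte sum was highest there too (4169 beside 1344 to 3318). Of the 3 tested adipocyte genes, however, 1 peaked in control replicate 2 and 2 in lactation replicate 2. Skeletal muscle markers summed to 71575 in control replicate 2 and 72811 in lactation replicate 1, and to 9047 to 29400 in the other 4. Markers of plasma cells, a cell type with a high load of secretory protein, summed to 17081 to 22958 in lactation and 13305 to 15440 in controls without overlap. By gene, 5 of the 6 tested were higher and 1 lower in lactation, and groups did not overlap for 1. Their log2 differences ran from -0.069 to 2.36. Acinar markers, of the enzyme-secreting cells of the pancreas, were dim throughout: 6 of 9 lay under the array median on all arrays. Genes of other lists had mostly lower or mostly higher means in lactation. Herpud1, Asns and Mthfd2 also had lower means there, with no gene past the adjusted threshold. Mast cell markers summed to 2405 to 3389 in lactation and 5309 to 9246 in controls, with 9 of 9 tested genes lower, 7 of them without overlap, and a median log2 difference of -1.21. Macrophage markers were lower in 11 of 11 genes (median -0.26) and ductal markers higher in 11 of 11 (median 0.29), with overlapping sums. The part of cell makeup in the group differences and in the profile of control replicate 2 was not tested.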

How the data were processed

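The deposited values are linear intensities, 1 for each probe set on each array; the submitters' processing notes name MAS5, with no version in the sources used here. The trimmed mean of each array (2% cut at each end) was 500.0, so arrays had been scaled. Of 45101 probe sets, 34958 named 1 gene, 932 several and 9211 none; symbols came from the platform annotation, compared through Entrez identifiers with the RefSeq table (34754 matched, 0 renamed). Log2(signal + 16) values of 11623 genes entered limma 3.58.1 under R 4.3.3 (eBayes with intensity trend, group as the only term), adjusted by Benjamini-Hochberg over all genes tested. The fit was tested on simulated data. Tables and plots used Python 3.11.15, pandas 2.3.3 and matplotlib 3.10.9.

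The members, the wider lists and the tests were chosen with earlier results of these data known. All 36 members are named; of the wider lists, genes past the adjusted threshold or, with none, up to 4 per direction with the largest difference among genes without overlap. 11 symbols of tRNA synthetases were matched by their older names. Alternatives were quantile normalization, median centring, added constants of 1 and 64, no filter, a filter at the 70th percentile, averaging all probe sets of a gene, no trend, robust eBayes, a replicate block and leaving out each array. Precision is limited by 3 arrays per group; RNA quality was similar, with the log2 ratio of 3' to 5' Gapdh signal from -0.43 to -0.40. The labels call the tumours biological replicates. P-values measure only the spread between these tumours.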

Additional observations from a re-analysis of the deposited data

How the results depend on the processing

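No gene passed the adjusted threshold in any of the 16 alternatives, where 137 to 652 genes had an unadjusted p under 0.05 in limma, against 264 as reported; the count was 577 with no filter, 385, 412 and 137 without lactation replicate 1, 2 and 3, and 652, 204 and 241 without control replicate 1, 2 and 3. The lowest adjusted p of a member was 0.871. Of the 35 tested members 12 kept their direction in every alternative run for them, Herpud1, Mthfd2 and Asns among them, and 23 did not; 6 of the 35 (Chac1, Eif2ak3, Ern1, Ppp1r15a, Sesn2 and Trib3) lay under the filter in an alternative, and Slc7a11 could be fitted only with no filter. Directions reversed on averaging all probe sets of a gene for Hspa5 (0.046), Canx (-0.023), Pdia6 (-0.11), Syvn1 (-0.076) and Atf4 (0.0011), and with arrays centred on their medians for Hsp90b1 (-0.018), Calr (-0.0011), Pdia6 (-0.027) and Syvn1 (-0.027). With 1 array left out, log2 differences that changed sign ran from -0.041 to 0.071 for Hsp90b1, from -0.029 to 0.11 for Hyou1, from -0.052 to 0.12 for Dnajb11, from -0.12 to 0.039 for Dnajc3, from -0.28 to 0.12 for Sdf2l1, from -0.048 to 0.25 for Creld2, from -0.14 to 0.016 for Manf, from -0.045 to 0.082 for Pdia6, from -0.083 to 0.074 for Atf6, from -0.12 to 0.054 for Eif2ak3, from -0.082 to 0.035 for Xbp1, from -0.011 to 0.060 for Syvn1, from -0.078 to 0.0097 for Derl1, from -0.61 to 0.017 for Trib3, from -0.26 to 0.79 for Sesn2, from -0.14 to 0.12 for Ddit4, from -0.44 to 0.21 for Psat1, from -0.30 to 0.11 for Phgdh and from -0.14 to 0.0027 for Shmt2. Over the left-out arrays the median of the chaperone, sensor and ERAD members ran from -0.048 to 0.014 and that of the ATF4 arm from -0.28 to -0.0098; centring each array on its median gave -0.083 and -0.19. Causes of these reversals were not tested.

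The labels do not say that replicate numbers pair the tumours. The correlations of same-numbered arrays' deviations from their group means were 0.143, -0.0829 and 0.267. Arrays of different number were not compared, so these values cannot decide whether the tumours were paired. With the number as a replicate block 0 genes passed and 289 had an unadjusted p under 0.05 in limma. The unadjusted p in limma was then 0.00680 in place of 0.0341 for Mthfd2 and 0.00937 in place of 0.00744 for Herpud1. The medians of the arms stayed at -0.038 and -0.14, which a block cannot move in this balanced design.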
